A study of Homo sapiens with 2 samples.

Results

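The CREB and ATF genes encode transcription factors of the basic leucine zipper (bZIP) class, and 10 of them are described here: CREB1, CREB3, CREB3L2, CREB5, CREM, ATF1, ATF2, ATF3, ATF5 and ATF7. The list was chosen from these same libraries, around CREB5 and ATF3, which were known to differ at least 2-fold, and the other 8 were added as family members. The ratios below therefore describe the genes, and no test supports them. All 10 were found by symbol among the 62699 genes of the count table, and all 10 were among the 14291 genes that reached 1 CPM (counts scaled to a common library size) in at least 1 library.

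RNA came from HCC1954, an established human breast cancer line with an amplified ERBB2 (HER2) gene. Polyadenylated RNA was sequenced in 2 libraries, 1 whose genotype label is ASO-NC and 1 whose label is ASO-1235, and the labels give no dose, time or number of cultures. The series asks what the long non-coding RNA LINC01235 does to transcription in this line. With 1 library per group no difference can be checked against replicates, so no p-value is given and each ratio is between these libraries, not between the conditions. In bulk RNA, more cells with a transcript and more of it per cell cannot be told apart.

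A bZIP factor grips DNA with a basic region and pairs with a partner through a zipper of leucines, and the choice of partner decides the sequence it prefers. CREB1, CREM and ATF1 form a closely related group that binds the cyclic AMP response element (CRE) and is switched on when protein kinase A phosphorylates it. ATF2, ATF7 and CREB5 form another group, which can also pair with JUN and whose ATF2 and ATF7 members answer to stress kinases. ATF3 and ATF5 are induced by stress, and CREB3 and CREB3L2 are made as membrane proteins of the endoplasmic reticulum that are cut free before they enter the nucleus.

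The libraries held 48092494 counts in ASO-NC and 37916307 in ASO-1235. LINC01235, the RNA under study, had 1337 counts (28.8 CPM) in ASO-NC and 0 in ASO-1235, at least 377-fold lower with a floor of 3 counts for the ASO-1235 library. This bound is for the counts as deposited, and it is lower where both mates of a read pair were counted. The 8 markers of HER2-positive luminal cells were all expressed and summed to 10300 CPM (ASO-NC) and 9600 CPM (ASO-1235). Markers of immune cells (8 genes) summed to 1.49 and 2.24 CPM, of which ITGAM made up 1.31 and 1.83 CPM. CD2 had 0 counts in both libraries, and PTPRC had 0 in ASO-NC and 8 in ASO-1235. The 6 fibroblast markers summed to 45.4 and 40.6 CPM, of which COL1A1 made up 44.5 and 39.7 CPM, and PDGFRB had 0 counts in both. The 4 endothelial markers summed to 8.12 and 7.36 CPM, mostly VWF.

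The stretches before the start sites of CREB5 are shown first, because CREB5 had the highest ratio of the 10 genes. They come from the RefSeq windows on GRCh38.p14, which begin 250 bases before each annotated start. Windows were found for 9 of the 10 genes, 25 windows in all, and none for ATF2. Letters in capitals mark a match on either strand to the full CRE (TGACGTCA), its ATF variant (TTACGTCA), the AP-1 site bound by JUN and FOS (TGACTCA) or the composite element shared by C/EBP and ATF factors (TGATGNAA). CREB5 has 3 starts among these windows, all on the plus strand of chromosome 7. The first is at 28412518, whereas GENCODE 29 begins the gene at 28299321, and no window covers that start. Each is printed 5′ to 3′. The first 2 stretches end at the base before their start. For start 3, where GENCODE 29 places an exon of another transcript, only each match with 10 bases on either side is given.
CREB5 start 1, chr7:28412398-28412517: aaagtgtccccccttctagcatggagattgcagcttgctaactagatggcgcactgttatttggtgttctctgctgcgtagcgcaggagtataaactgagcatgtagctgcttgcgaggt
CREB5 start 2, chr7:28435495-28435614: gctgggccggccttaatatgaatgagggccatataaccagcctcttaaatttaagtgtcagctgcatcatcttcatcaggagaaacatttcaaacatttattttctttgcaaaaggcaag
CREB5 start 3, composite site, chr7:28686040-28686067: ggccagcacaTTACATCAtcgcttggcc
CREB5 start 3, AP-1 site, chr7:28686079-28686105: gggaaggataTGACTCActcaagctag
Neither of the first 2 windows of CREB5 held any of these motifs over its 250 upstream bases. The window of start 3 held an AP-1 site 44 to 38 bases before the start and a composite element, read on the other strand, 83 to 76 bases before it. Among all 35116 windows of this length, 4.2% held the AP-1 letters and 3.14% the composite letters. The counts are per gene, so they do not say which start was used in these cells.

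The next 3 stretches are shown because they hold the motif matches of ATF3 and the full CREs found among the 10 genes. The ATF3 stretch, on the plus strand of chromosome 1, ends at the base before the first exon of that gene in GENCODE 29. The CREM stretch, on the plus strand of chromosome 10, belongs to the seventh start, inside the gene. It ends with its CRE, which lies 50 to 43 bases before that start. The sixth start of CREM, at 35195850, falls within the stretch, so this CRE lies after the sixth start. The CREB3L2 stretch is read on the minus strand of chromosome 7 and ends at the base before the first start.
ATF3 start 1, chr1:212565206-212565333: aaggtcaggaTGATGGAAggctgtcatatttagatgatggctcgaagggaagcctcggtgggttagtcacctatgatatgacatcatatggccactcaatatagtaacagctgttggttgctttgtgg
CREM start 7, chr10:35195782-35195859: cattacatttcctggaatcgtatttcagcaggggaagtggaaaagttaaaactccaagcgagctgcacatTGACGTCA
CREB3L2 start 1, chr7:138002087-138002275: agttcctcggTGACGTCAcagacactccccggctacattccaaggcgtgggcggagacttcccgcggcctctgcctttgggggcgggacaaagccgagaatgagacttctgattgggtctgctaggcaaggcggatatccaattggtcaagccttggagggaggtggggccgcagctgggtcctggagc
The composite element of ATF3 lay 191 to 184 bases before the RefSeq start, and the other ATF3 window held no match. These windows belong to starts at 212565407 and 212615018. Any other start of ATF3 was not searched, so the absence of a motif holds for these windows only. A full CRE was found in 2 of the 25 windows of these genes, 1 of CREM and 1 of CREB3L2, against 1.65% of all windows. The shorter CRE core TGACG, which the full CRE contains on both strands, was found in 6 of the 25 windows and in 21.2% of all. The ATF variant was in 0 of the 25 and in 0.37% of all, and an AP-1 site was in 2 of the 25, of CREB5 and ATF5. A match describes these letters and does not show that a factor binds there.

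CREB5 (ENSG00000146592.17) stood furthest apart. It lies on chromosome 7 from 28299321 to 28825894 on the plus strand (GRCh38, GENCODE 29), with 15 annotated transcripts, the longest of 11 exons and 8532 bases. It had 781 counts in ASO-NC and 1953 counts in ASO-1235, or 16.8 and 49.7 CPM. The ratio of ASO-1235 over ASO-NC was 2.95, with a 95% counting interval of 2.72 to 3.21. Even numbers were more frequent than odd ones among the counts, as when both mates of a read pair are counted, and with all counts halved the interval was 2.63 to 3.33. All intervals cover counting error only, and those on the deposited counts are too narrow where mates were counted apart. Among the 9087 genes with a mean of at least 10 CPM, 2 had a higher ratio than CREB5.

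ATF3 (ENSG00000162772.18), on chromosome 1 from 212565334 to 212620777, was the other gene past 2-fold. It is an early stress gene whose protein represses transcription when it pairs with itself. It had 434 counts in ASO-NC and 848 in ASO-1235, or 9.35 and 21.6 CPM, a ratio of 2.31 (2.05 to 2.6). On halved counts the interval was 1.96 to 2.73. Its 11 annotated transcripts share no bases with another gene in the annotation, and 12 genes at a mean of 10 CPM had a higher ratio.

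Of the 10 genes, 2 were at least 2-fold higher in ASO-1235 with an interval that excluded 1, and 0 were lower. The list was built on this very difference, so its count is given beside the background and nothing is read from it. By that rule 2.19% of all genes at 1 CPM were higher and 0.616% lower. Among genes with a mean of at least 10 CPM, as all 10 had, the shares were 0.209% and 0.011%. At 1.5-fold the same 2 genes were higher and 0 lower. The background at 1.5-fold was 5.77% higher and 3.33% lower at 1 CPM, and 1.39% higher and 0.638% lower at a mean of 10 CPM. Higher genes made up 63.4% of all calls at 1.5-fold, and 81.3% when libraries were scaled by total count, a scaling that moves the median log2 ratio of all genes from −0.02 to 0.08 and the medians of the lists below with it.

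**Figure D1:**
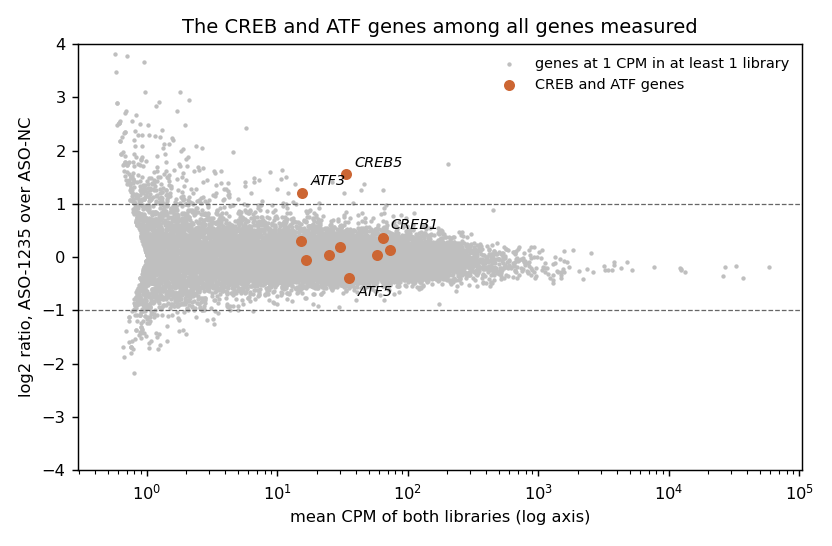
Log2 ratio of ASO-1235 over ASO-NC against the mean CPM of both libraries on a log axis, 1 point per gene, with the CREB and ATF genes in orange and dashed lines at 2-fold. CREB5 and ATF3 lie above the upper line and the other 8 lie between the lines, among the bulk of genes at their level; 3 genes, LINC01235 among them, fall outside the axis.

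CREB5's nearest relatives had ratios near 1. ATF2 (chromosome 2, 175072250 to 175168382, minus strand), a factor switched on by JNK and p38 kinases, had 2635 counts in ASO-NC and 2294 in ASO-1235, or 56.8 and 58.4 CPM, a ratio of 1.03 (0.972 to 1.09). ATF7 (chromosome 12, 53507856 to 53626410, minus strand), its close homologue, had 1315 and 1269 counts, or 28.3 and 32.3 CPM, a ratio of 1.14 (1.05 to 1.23). Of these 3 genes CREB5 alone was past 1.5-fold. The spans of ATF7 and an antisense gene share 2043 exonic bases, but that gene had only 2 counts in ASO-NC and 0 in ASO-1235. ATF7-NPFF, on the same strand, shares 1456 exonic bases with ATF7 and had 0 counts in both libraries. Reads of that stretch cannot be assigned with certainty.

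The CRE-binding group around CREB1 lay within 1.5-fold. CREB1 (chromosome 2, 207529737 to 207603431, plus strand), the main activator of genes that respond to cyclic AMP, had 2634 counts in ASO-NC and 2835 in ASO-1235, or 56.8 and 72.2 CPM, a ratio of 1.27 (1.21 to 1.34). ATF1 (chromosome 12, 50763710 to 50821122, plus strand), which can pair with CREB1, had 639 and 664 counts, or 13.8 and 16.9 CPM, a ratio of 1.23 (1.1 to 1.37). CREM (chromosome 10, 35126791 to 35212958, plus strand), whose alternative products include both activators and the inducible repressor ICER, had 793 and 642 counts, or 17.1 and 16.3 CPM, a ratio of 0.956 (0.861 to 1.06). Of these 3, CREB1 and ATF1 were higher in ASO-1235 by more than counting error, and the interval of CREM included 1. The log2 ratio of CREM was −0.06, and 0.04 when libraries were scaled by total count. Counts per gene pool the 48 annotated transcripts of CREM, so ICER was not measured apart from the full-length factor.

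ATF5 (chromosome 19, 49928702 to 49933935, plus strand), a stress factor tied to the unfolded protein response of mitochondria, was the single gene below 1 by more than counting error. It had 1859 counts in ASO-NC and 1204 in ASO-1235, or 40.1 and 30.6 CPM, a ratio of 0.765 (0.711 to 0.823). ATF5 and ATF3, the stress-induced genes of the list, thus lay on opposite sides of 1. ATF5 shares 626 exonic bases with NUP62 on the opposite strand, whose ratio was 0.818. The strand setting of the counting is not given in the sources used here, so reads of that stretch cannot be assigned with certainty.

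The membrane-bound factors were close to 1. CREB3 (chromosome 9, 35732335 to 35737004, plus strand), which is cut free in the Golgi apparatus, had 1133 counts in ASO-NC and 985 in ASO-1235, or 24.4 and 25.1 CPM, a ratio of 1.03 (0.942 to 1.12). CREB3L2 (chromosome 7, 137874979 to 138002067, minus strand), a regulator of secretory pathway genes, had 3235 and 3008 counts, or 69.7 and 76.6 CPM, a ratio of 1.1 (1.04 to 1.15). MBTPS1 and MBTPS2, the proteases that release these factors and ATF6, had ratios of 0.911 (0.88 to 0.944) and 1.28 (1.22 to 1.34). CREB3 shares 139 exonic bases with GBA2 and 61 with TLN1 on the opposite strand, with ratios of 0.826 and 0.94.

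Across the 10 genes the median log2 ratio was 0.16, and 8 had ratios above 1. CREB5 and ATF3 were chosen for their high ratios, so these values are partly set by that choice. Over all genes at 1 CPM the median was −0.02, with 47.5% above 1. Among genes with a mean of at least 10 CPM it was −0.04, with 44.3% above 1. Without CREB5 and ATF3 the median of the remaining 8 was 0.09, with 6 above 1. Their range, from −0.39 to 0.35, lies inside the central 95% of genes at a mean of 10 CPM (−0.47 to 0.5). The intervals of CREB1, CREB3L2, CREB5, ATF1, ATF3 and ATF7 lay above 1 and that of ATF5 below 1, both for the counts as deposited and for halved counts. How many of all genes had such intervals was not counted, so these describe each gene alone and not the family.

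The ratios also moved with the base composition of the transcripts. A curve fitted to log2 ratios against GC content and transcript length, over 13963 genes, had a value of 0.29 for CREB1 and 0.24 for ATF1, whose longest transcripts have 36% and 34.2% GC. With the trend removed their ratios were 1.04 and 1.04. That of CREB5 was 2.52 and that of ATF3 2.3. ATF2 went from 1.03 to 0.877, and ATF5 from 0.765 to 0.869. Ratios of the genes in the lists below are given with the trend left in, and they move with it too. Without it PRKAR1A went from 1.34 to 1.17, PRKACB from 1.25 to 1.07 and PPARGC1A from 1.53 to 1.34. DDIT3 rose from 1.49 to 1.57. The part of base composition in the differences between these libraries was not tested.

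**Figure D2:**
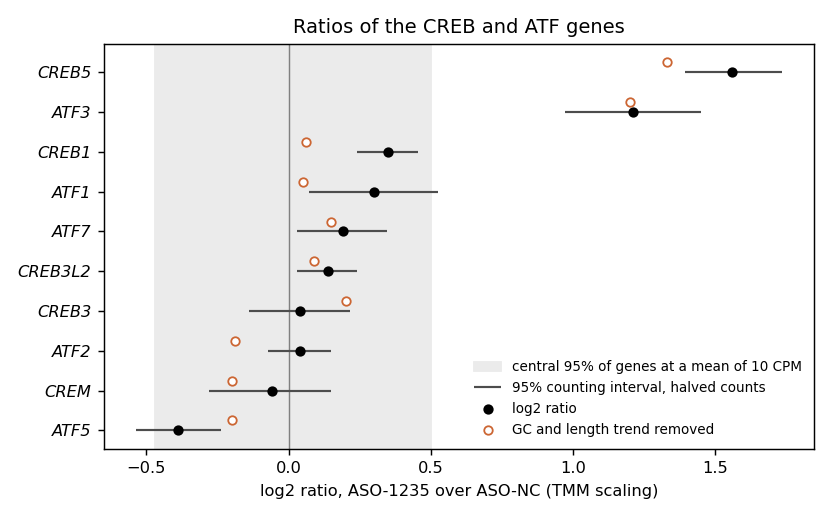
Log2 ratio of ASO-1235 over ASO-NC for each gene (black points) with the 95% counting interval on halved counts (lines), the value with the GC and length trend removed (open points), and the central 95% of genes at a mean of 10 CPM (grey band). CREB5 at 1.56 and ATF3 at 1.21 lie right of the band in both versions, and the other 8 black points lie inside it.

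Levels were compared between genes per kb of the longest annotated transcript. In ASO-NC, CREB5 was the lowest of the 10 at 1.97 CPM per kb, below ATF7 at 4.24 and ATF3 at 4.45, and ATF5 was the highest at 19.4. ATF2 and CREB3 followed at 13.6 and 13.3 CPM per kb, then CREB3L2 at 9.4, CREB1 at 7.42, CREM at 7.41 and ATF1 at 6.31. The neighbours ATF2 and CREB3, CREB1 and CREM, and ATF3 and ATF7 did not differ beyond counting error on halved counts, and the other neighbours did.

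In ASO-1235 the upper end of the order was the same and the lower end was not. ATF5 stood at 14.8, ATF2 at 14 and CREB3 at 13.7 CPM per kb, which did not differ between neighbours beyond counting error. CREB3L2 and ATF3 stood at 10.3 each and CREB1 at 9.43, again without a difference between neighbours, followed by ATF1 at 7.75 and CREM at 7.09, which did not differ either. CREB5 at 5.83 CPM per kb was above ATF7 at 4.84 and below CREM. The order rests on the length chosen: by the median transcript length CREB1 was the highest in both libraries and CREB5 was sixth in ASO-NC and the third in ASO-1235.

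**Figure D3:**
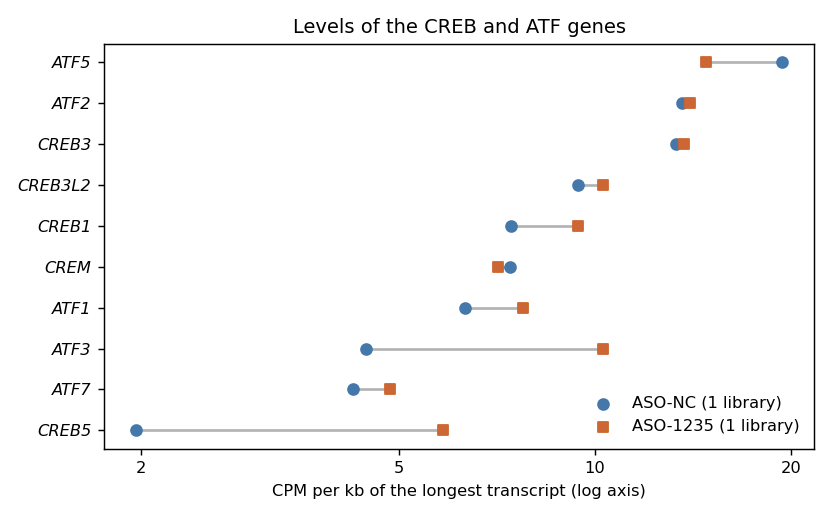
Level of each gene as CPM per kb of its longest annotated transcript on a log axis, in the ASO-NC library (blue circles) and the ASO-1235 library (orange squares), joined by a line. The longest lines are those of CREB5, from 1.97 to 5.83, and ATF3, from 4.45 to 10.3.

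Of the other bZIP genes, ratios above and below 1 were equally frequent. Of 21 such genes 18 reached 1 CPM, with a median log2 ratio of 0.05 and 9 ratios on each side of 1. CREBRF, which encodes a protein that binds and restrains CREB3, was the single gene past 1.5-fold, at 662 and 1481 counts, for a ratio of 2.64 (2.41 to 2.9). Its high ratio was known when the list was drawn up, and 5.77% of all genes at 1 CPM were higher at 1.5-fold. DDIT3, the stress factor CHOP, had 715 and 903 counts and a ratio of 1.49 (1.35 to 1.65), just short of that size. ATF6 and CEBPG were at 1.27 and 1.29, and ATF6B, XBP1 and CREB3L1 at 0.78, 0.865 and 0.862. ATF4, the main driver of the amino acid response, had 20365 and 18661 counts and a ratio of 1.08 (1.06 to 1.1). CREB3L3 and CEBPE had 0 counts in both libraries.

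The dimer partners and coactivators mostly stayed near 1. Of 7 JUN and FOS genes, FOS passed 1.5-fold, at 126 and 188 counts, for a ratio of 1.76 (1.4 to 2.23), and the median was 0.1. JUN, a partner of ATF2, ATF3 and ATF7, had 3352 and 3686 counts and a ratio of 1.3 (1.24 to 1.36). Of the 5 coactivators of CREB, 0 passed 1.5-fold. Among all genes at 1 CPM, 5.77% were higher and 3.33% lower by that rule. CREBBP was at 1.18 (1.14 to 1.22) and EP300 at 1.06 (1.03 to 1.09), and CRTC1 was at 0.808 (0.747 to 0.873).

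Genes that make, break down and sense cyclic AMP had a median log2 ratio of −0.08, with 25 of 39 at 1 CPM. Past 1.5-fold 0 were higher and 1 lower, against 5.77% and 3.33% of all genes at 1 CPM. The lower gene was ADCY2, an adenylyl cyclase, at 155 and 84 counts, for a ratio of 0.64 (0.485 to 0.84). ADCY6, another cyclase, had 4398 and 2808 counts and a ratio of 0.754 (0.719 to 0.791). Among the subunits of protein kinase A, PRKAR1A was at 1.34 (1.29 to 1.38), PRKACB at 1.25 (1.18 to 1.32) and PRKAR2B at 0.686 (0.568 to 0.827). Of 23 kinases that act on CREB, ATF2 or the CRTC coactivators, 20 reached 1 CPM. CAMK1D alone of them passed 1.5-fold, a count that stands beside the same shares of all genes. It had 172 and 290 counts, for a ratio of 1.99 (1.64 to 2.42). SIK3, which holds CRTC proteins in the cytoplasm, was at 1.4 (1.28 to 1.53), and MAPK11, a p38 kinase, at 0.722 (0.628 to 0.829).

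Known targets of CREB and cyclic AMP had ratios on both sides of 1. Of 33 targets 20 reached 1 CPM, and the median of their log2 ratios was 0.22. Past 1.5-fold there were 7 higher and 1 lower. These counts stand beside the 5.77% and 3.33% of all genes at 1 CPM, and the list was drawn up with EGR1, PER1 and AREG already known to be higher. IRS2, an adaptor of the insulin receptor, had 200 counts in ASO-NC and 515 in ASO-1235, 3.04 times as high (2.58 to 3.6). PER1 of the circadian clock had 491 counts in ASO-NC and 1121 in ASO-1235, at 2.7 (2.42 to 3). EGR1, an immediate early factor, had 1194 in ASO-NC and 2403 in ASO-1235, at 2.38 (2.22 to 2.55). INHBA, a subunit of activin, had 24 and 49 counts (0.517 and 1.25 CPM) and a ratio of 2.41 (1.45 to 4.11). INHBA reached 1 CPM only in ASO-1235, where it was higher, so the filter favoured its place in this count. PPARGC1A, a coactivator of mitochondrial genes, was at 1.53 (1.37 to 1.72) and the growth factor gene AREG at 1.53 (1.31 to 1.8), with FOS as above.

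The other targets lay on both sides of 1. VGF, which encodes a secreted neuropeptide precursor, was at 1.45 (1.07 to 1.99), with an interval on halved counts that included 1 (0.933 to 2.28). NR4A2, a nuclear receptor gene, was at 1.3 (1.08 to 1.56). TH, the tyrosine hydroxylase gene, had 71 and 40 counts and a ratio of 0.666 (0.44 to 0.994), whose interval on halved counts included 1 (0.369 to 1.2). NR4A1, an early nuclear receptor gene, had 821 and 483 counts and a ratio of 0.695 (0.62 to 0.779), and the cyclin gene CCNA2 was at 0.838 (0.791 to 0.888). DUSP1 and MCL1, which encode a phosphatase and a survival factor, were at 1.2 (1.11 to 1.3) and 1.11 (1.08 to 1.13). SIK1 and PCK1, classic responders to cyclic AMP in other tissues, had 2 counts each in ASO-NC and 0 in ASO-1235. CREM, itself a target, was at 0.956.

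Of 18 stress genes downstream of or beside ATF4, ATF3 and CHOP, 17 reached 1 CPM, with a median log2 ratio of −0.1. The 2 past 1.5-fold, both higher, were ATF3 itself, whose difference was known beforehand, and PPP1R15A. By that rule 5.77% of all genes at 1 CPM were higher and 3.33% lower. PPP1R15A, which encodes a phosphatase subunit that restores translation, had 2621 and 3777 counts and a ratio of 1.7 (1.62 to 1.79). DDIT3, described above, was at 1.49, and CEBPB, a factor of the C/EBP family, at 1.25 (1.17 to 1.34). NUPR1 was at 0.805 (0.739 to 0.875). CHAC1 was at 0.717 (0.544 to 0.941), with an interval on halved counts that included 1 (0.485 to 1.06). On halved counts, 6 intervals of this list lay above 1 and 3 below, and nothing is read from this split, as its share over all genes was not counted. HSPA5, the chaperone of the endoplasmic reticulum, was at 1.04 (1.02 to 1.06). These counts include ATF3 above 1 and ATF5 below it.

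**Figure D4:**
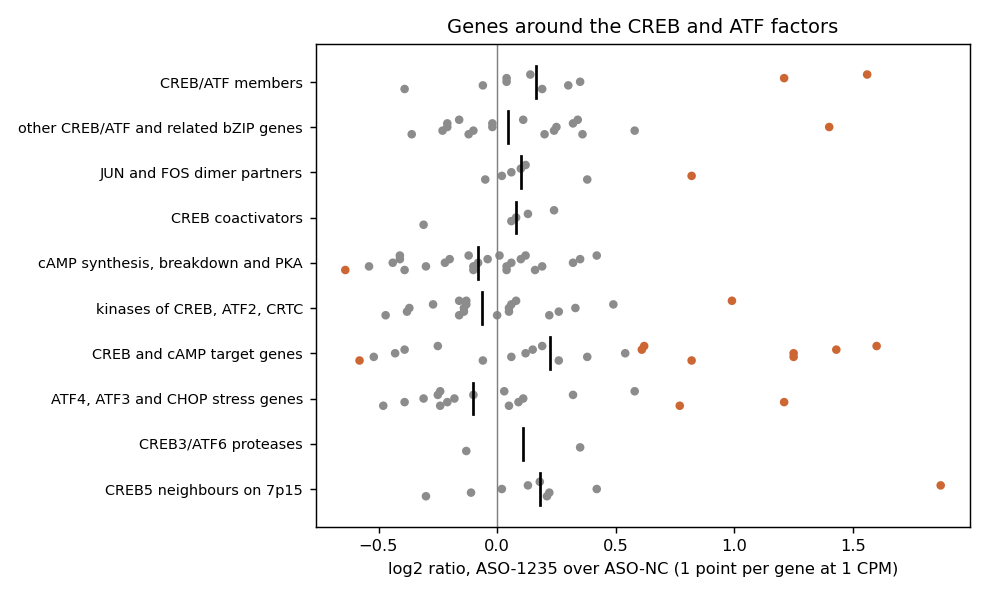
Log2 ratio of ASO-1235 over ASO-NC of each gene at 1 CPM, by gene list, with genes past 1.5-fold whose interval excluded 1 in orange, others in grey, and the median of each list as a black bar. Medians lie between −0.1 and 0.22; a gene that is in more than 1 list, such as FOS or ATF3, is drawn in each.

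The neighbourhood of CREB5 on chromosome 7 held another gene with a high ratio. JAZF1, which encodes a zinc finger protein, lies 119 kb before the annotated start of CREB5 on the opposite strand and had 41 counts in ASO-NC and 128 in ASO-1235, a ratio of 3.69 (2.58 to 5.38), or 2.26 to 6.6 on halved counts. It was weakly expressed, at 0.883 and 3.26 CPM, and passed the minimum of 1 CPM only through ASO-1235. TRIL, 127 kb beyond the other end of CREB5, had 1537 and 1471 counts and a ratio of 1.13 (1.05 to 1.22). TAX1BP1, whose span overlaps the far end of JAZF1, was at 1.34 (1.3 to 1.38). The other 6 of the 9 neighbours at 1 CPM had ratios from 0.815 (PRR15) to 1.16 (HOXA13), and none of them was past 1.5-fold. Over all genes at 1 CPM, 5.77% were higher at 1.5-fold.

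**Figure D5:**
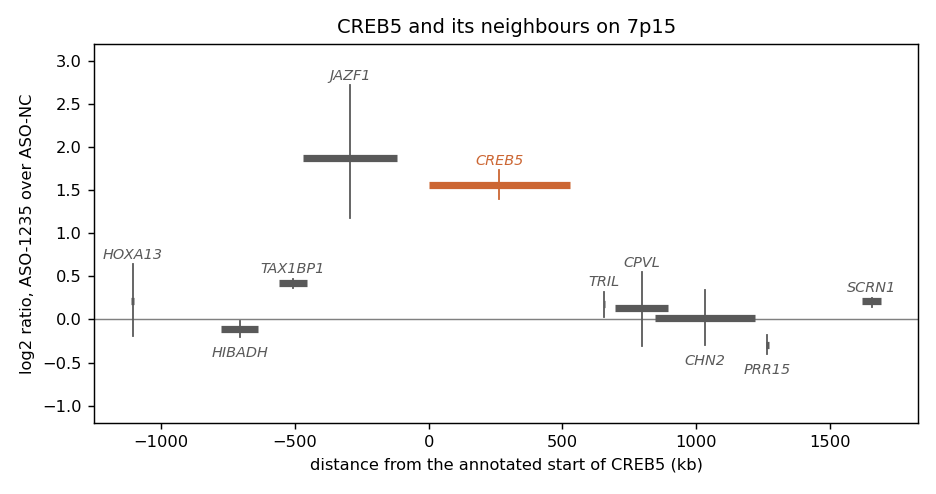
Log2 ratio of ASO-1235 over ASO-NC of CREB5 and the 9 listed neighbours at 1 CPM, drawn over each gene's span as distance in kb from the annotated start of CREB5, with 95% counting intervals on halved counts as thin lines. JAZF1 at 1.87 and CREB5 at 1.56 stand above the other 8, which lie between −0.3 and 0.42.

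The 5 genes with a mean of at least 10 CPM whose log2 ratio lay nearest to that of CREB5 were SAMD4A at 1.5, PSG4 at 1.64, FOXP2 at 1.47, PER1 at 1.43 and CREBRF at 1.4. With 2 libraries this likeness is a closeness of 1 number and no more. PSG4 belongs to a family of near-identical genes, so its count is uncertain.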

How the data were processed

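The authors deposited 1 table of raw counts per Ensembl gene, whole numbers without normalization as far as the values show. Tools listed per the submitters' processing notes are STAR 2.7.11a and featureCounts 2.0.6, and the build is hg38. Which annotation and strand setting went in is not given in the sources used here. Of the IDs, 62699 had counts, all with a name, and 58206 were in GENCODE 29, the source of positions, lengths and GC content. The table has 1 further ID without counts, left out with 2 lines of coordinates.

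Libraries were scaled by TMM over all genes (edgeR 4.0.16, R 4.3.3). The ASO-NC factor was 0.965 and the ASO-1235 factor 1.04. Ratios are scaled counts of ASO-1235 over ASO-NC, with exact (Clopper-Pearson) 95% intervals given the sum of both counts. Log2 ratios used a prior count of 0.5. Genes were called at 1 CPM in at least 1 library, 1.5-fold or 2-fold, and an interval that excluded 1. Even numbers made up 67.5% and 64% of counts from 1 to 1000, as when both mates of a pair are counted, so intervals on halved counts are given too. Intervals and the floor cover counting error only. PCR reads are not independent molecules.

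The trend on GC content and length was a robust spline fit with 5 degrees of freedom each (statsmodels 0.14.6). Promoter windows came from RefSeq. Intervals were also run on simulated counts that were all even, as if both mates of every pair were counted. Without halving they were too narrow there by construction. Not all counts of these libraries are even, so the simulation does not measure how narrow the intervals are here. Alternatives were other scalings (DESeq2 1.42.0 among them), minimums, intervals and prior counts.

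The members and lists were chosen with earlier results of these data known. Named are all members, LINC01235, the list genes past 1.5-fold and some of the next by the bound nearest to 1, the 5 nearest to CREB5, and overlapping genes. ATF4, HSPA5, TRIL, HOXA13, single markers, SIK1, PCK1 and the genes at 0 counts were named after their values were seen.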

Additional observations from a re-analysis of the deposited data

How the results depend on the processing

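CREB5 and ATF3 stayed past 1.5-fold under each of the 8 alternatives run for the log2 ratios, with log2 ratios of 1.33 to 1.66 for CREB5 and 1.19 to 1.31 for ATF3, and no other member passed it. Halving the counts changed only the intervals, so its log2 ratios equal the main ones and could not change sign. Of 80 member values under alternatives, these among them, 2 changed sign. CREM was at 0.04 with scaling by total count, which moves the median of all genes from −0.02 to 0.08. ATF2 was at −0.19 with the GC and length trend removed. By total count 284 genes were lower at 1.5-fold, against 476, and higher genes were 81.3% of calls, against 63.4% (825 genes). With a minimum of 5 CPM, 242 were higher and 128 lower at 1.5-fold and 42 and 4 at 2-fold (91.3% of calls higher, against 78.1%). With no minimum these were 2288 and 1161, and 1725 and 741, against 313 and 88. Among 112 listed genes at 1 CPM outside the members, of which 9 are the neighbours of CREB5, 11 (JAZF1 included) were higher and 2 lower at 1.5-fold, against 5.77% and 3.33% of all genes. CREBRF, EGR1, PER1 and AREG among the 11 were known to be higher when the lists were drawn up. JAZF1 and INHBA reached 1 CPM only in ASO-1235, so nothing is read from the 11. The 2 lower genes became 0 by total count or at 5 CPM and 1 by upper quartile, halved counts, a 99% interval or TMM over genes at 1 CPM, the last chosen after the data were seen. With no minimum 17 were higher and 4 lower. Levels per kb moved with the transcript length used for 19 of 20 values. Depth limits weak genes such as JAZF1 and INHBA most.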
